A study of Homo sapiens with 6 samples.

Results

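Tight junctions seal the gap between neighboring epithelial cells, and their RNA was examined here through 9 genes in MDA-MB-231 cells with and without knockdown (KD) of PELP1. The genes were chosen by symbol, as CLDN1, CLDN3, CLDN4, CLDN7, OCLN, EPCAM, TJP1, TJP3 and F11R, and all 9 were found among the 23228 symbols of the count tables. MDA-MB-231 is an established human line from a triple negative breast cancer, a cancer without estrogen receptor, progesterone receptor or amplified HER2. The control cells stably expressed a non-targeted shRNA, and the PELP1-KD cells stably expressed an shRNA against PELP1, a nuclear receptor coregulator that also takes part in ribosome assembly. Both kinds of cells were made with lentiviral particles, selected with puromycin and grown in RPMI medium with serum, and each was sequenced in 3 replicates. A single shRNA against PELP1 was used, so that loss of PELP1 and any other effect of this shRNA cannot be told apart. The labels do not say that the replicates came from separate cultures, and p-values then measure only the spread between these samples.

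Claudins are membrane proteins with 4 passes that form the strands of the junction, and their mix sets which ions pass between cells. Occludin (OCLN) lies in the same strands, JAM-A (F11R) is an immunoglobulin-type adhesion receptor beside them, and the zonula occludens scaffolds ZO-1 (TJP1) and ZO-3 (TJP3) tie these proteins to the actin cytoskeleton. EPCAM is an epithelial surface protein that binds CLDN7. MDA-MB-231 cells are usually placed among the claudin-low, mesenchymal-like breast lines, in which the epithelial junction program is weak.

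Between 17304864 and 23132102 reads were counted on genes in a replicate, and 3 reads corresponded to between 0.13 and 0.173 CPM, the read count scaled to library size. PELP1 had 57.2, 56.0 and 60.2 CPM in controls 1 to 3 and 28.6, 29.8 and 30.2 CPM in PELP1-KD replicates 1 to 3. Its mean went from 57.8 ± 2.13 to 29.5 ± 0.876 CPM (mean ± SD, n = 3 each), a log2FC of -0.97 ± 0.0552 (SE) with an adjusted p of 1.48e-11 by edgeR's quasi-likelihood test. CDH1, which encodes E-cadherin, had 0 to 4 reads in any replicate, and the mesenchymal gene VIM had 2220 CPM in the control cells. The summed level of 7 genes of mesenchymal-like breast lines ran from 7606 to 7681 CPM in the controls and from 6332 to 6397 CPM in PELP1-KD cells, and 6 of the 7 were significantly lower, where 24.2% of all 12796 genes tested were lower and 22.7% were higher. The summed level of 10 luminal epithelial genes ran from 795 to 817 CPM in the controls and from 685 to 696 CPM in PELP1-KD cells. Of the 8 luminal genes tested, 6 were lower and 1 was higher, beside the same 24.2% and 22.7% of all genes, and TFF1 had no read in any replicate. Of 3 receptor genes listed as low in triple negative lines, ESR1 and PGR were under 1 CPM in every replicate. ERBB2, which encodes HER2, had 113 ± 3.42 CPM in the controls and 118 ± 8.56 CPM in PELP1-KD cells (mean ± SD, n = 3 each). All 4 blood cell genes were under 1 CPM in every replicate. The part of these shifts in the results that follow was not tested, and in bulk RNA fewer cells of a type and less RNA per cell cannot be told apart.

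Repressors of epithelial genes such as ZEB1 and SNAI1 bind E-boxes with the letters CAGGTG, and the promoters of the members were searched for these letters on both strands. RefSeq gave 13 promoters for 7 of the 9 genes on GRCh38.p14, each reaching from 250 bases before a transcription start to 50 bases after it, and EPCAM and F11R had no entry. CLDN1 and CLDN4 each had 1 start and no such E-box, and 20.6% of all 35116 promoters held at least 1. The second listed start of CLDN7 had 5 E-boxes, with the first bases 174, 135, 20 and 9 bases before the start and 5 bases after it. The 250 bases before the start are printed for CLDN1, the tested member with the largest change, for CLDN4, the member with the highest level, and for CLDN7, the member with the most E-boxes in a single promoter. Capitals mark E-boxes, and the bases lie at chr3:190322447-190322696 on the minus strand, chr7:73830746-73830995 on the plus strand and chr17:7262479-7262728 on the minus strand.
CLDN1: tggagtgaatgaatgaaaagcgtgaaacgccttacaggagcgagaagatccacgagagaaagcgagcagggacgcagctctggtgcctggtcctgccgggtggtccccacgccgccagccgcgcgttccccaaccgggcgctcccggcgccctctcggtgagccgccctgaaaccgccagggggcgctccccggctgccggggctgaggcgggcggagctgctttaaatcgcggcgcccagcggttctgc
CLDN4: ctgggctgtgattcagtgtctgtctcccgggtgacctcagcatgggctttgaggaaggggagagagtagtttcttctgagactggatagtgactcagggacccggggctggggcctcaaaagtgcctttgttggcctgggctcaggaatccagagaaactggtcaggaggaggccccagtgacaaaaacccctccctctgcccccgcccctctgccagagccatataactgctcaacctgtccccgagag
CLDN7: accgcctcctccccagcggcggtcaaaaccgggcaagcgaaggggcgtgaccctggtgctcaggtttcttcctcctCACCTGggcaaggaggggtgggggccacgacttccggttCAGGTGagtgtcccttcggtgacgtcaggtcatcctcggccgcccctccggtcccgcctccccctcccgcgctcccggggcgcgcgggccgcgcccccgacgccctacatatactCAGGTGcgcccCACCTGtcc
The promoter of CLDN3 had 1 E-box, the 2 of OCLN had 1 and 2, and 1 of the 2 of TJP3 had 1. Of the 4 promoters of TJP1, 1 had 1 E-box, and its start lies outside the GENCODE span of TJP1 given here. A match is a description of the letters and not a sign of binding.

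Levels were compared between genes as RPKM, which is CPM divided by the length of the exons in kilobases. In the control cells CLDN4 was highest at 19.8 RPKM, followed by TJP1 at 8.64, CLDN7 at 6.22, F11R at 4.13, EPCAM at 3.76, CLDN3 at 1.83, CLDN1 at 1.45, OCLN at 0.683 and TJP3 at 0.049 RPKM. Neighbors in this order did not overlap over the 3 control replicates, except F11R with EPCAM and CLDN3 with CLDN1. In PELP1-KD cells the order was the same, and the only neighbors to overlap were CLDN1 at 0.687 RPKM and OCLN at 0.653 RPKM. With the length of the principal transcript in place of all exons, EPCAM stood above F11R in the control cells, at 5.49 against 4.32 RPKM. RNA of CLDN4, CLDN7 and EPCAM was thus present in cells with CDH1 at or near 0.

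**Figure D1:**
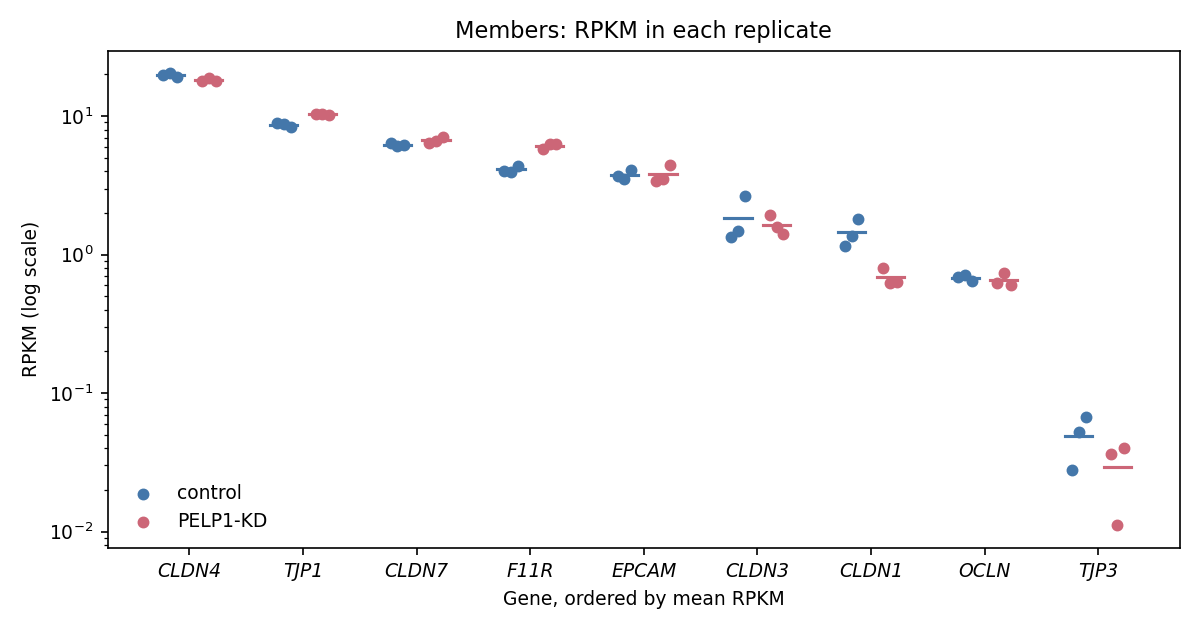
RPKM of the 9 genes on a log axis, in control cells (blue) and PELP1-KD cells (red). Points are replicates and lines are means of 3, and the groups stand apart for CLDN1 and CLDN4 (lower in PELP1-KD cells) and for TJP1 and F11R (higher).

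The comparison of PELP1-KD with control cells asks which junction genes change with PELP1. Of the 9 genes, 8 had enough reads to be tested and TJP3 did not. F11R and TJP1 were upregulated, CLDN1 and CLDN4 were downregulated, and CLDN3, CLDN7, OCLN and EPCAM did not pass an adjusted p-value of 0.05 from edgeR's quasi-likelihood test. The 2 upregulated and 2 downregulated genes make up 50.0% of the 8, beside 46.9% of all 12796 genes tested, of which 22.7% were higher and 24.2% were lower. The median log2FC of the 8 was -0.02, and that of all genes tested was 0.0014. CLDN1 alone went beyond a log2FC of 1, where 1.34% of all genes tested were downregulated to this extent and 1.90% upregulated. The groups did not overlap in these 4 genes, 2 higher and 2 lower, beside 55.0% of all genes tested, with 27.0% higher and 28.0% lower.

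Among the 7 claudins tested, the largest change was in CLDN1, a sealing claudin of epithelia and skin. CLDN1 lies on chromosome 3 of GRCh38 from 190305701 to 190322475 on the minus strand. It had 72, 114 and 118 reads in control replicates 1, 2 and 3, and 57, 49 and 55 reads in PELP1-KD replicates 1, 2 and 3. After scaling, these were 4.26, 5.01 and 6.64 CPM in the controls and 2.92, 2.30 and 2.34 CPM in PELP1-KD cells. The groups did not overlap, with PELP1-KD lower, and the controls were the more widely spread. The mean fell from 5.30 ± 1.22 to 2.52 ± 0.351 CPM (mean ± SD, n = 3 each), which is a log2FC of -1.08 ± 0.173 (SE) with an adjusted p of 3.25e-05 by edgeR. The 95% interval of the log2FC reached from -1.44 to -0.72. Control replicate 3 was the highest, and without it the log2FC was -0.90 (adjusted p-value 2.00e-04), which is no longer beyond 1.

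CLDN4, a claudin of simple epithelia and the most abundant of the 9 genes per length, changed little. It lies on chromosome 7 from 73799542 to 73832693 on the plus strand. CLDN4 had 92.8, 95.8 and 90.1 CPM in controls 1 to 3 and 84.8, 89.2 and 83.8 CPM in PELP1-KD replicates 1 to 3. The highest PELP1-KD replicate was just below the lowest control. The mean decreased by 7.48%, at a log2FC of -0.11 ± 0.0442 (SE) with an adjusted p of 0.0407. This call was lost with DESeq2 (adjusted p-value 0.0743) and with scaling by library totals alone (log2FC -0.06, adjusted p-value 0.239). It was also lost without control replicate 2 (adjusted p-value 0.178), without PELP1-KD replicate 1 (0.125) and without PELP1-KD replicate 3 (0.159).

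CLDN7, which binds EPCAM in epithelial membranes, lies on chromosome 17 from 7259903 to 7263983. It had 16.0, 15.3 and 15.3 CPM in the controls and 15.9, 16.5 and 17.8 CPM in PELP1-KD cells. The groups overlapped, and the log2FC was 0.11 with a 95% interval from -0.05 to 0.27 (adjusted p-value 0.25). Its level is uncertain because 8.25% of its 50-base windows also occur in transcripts of other genes. CLDN3, a close relative of CLDN4, lies on chromosome 7 from 73768997 to 73770270. It had 29, 43 and 60 reads in the controls and 48, 43 and 42 reads in PELP1-KD cells. Its log2FC was -0.16 with a 95% interval from -0.64 to 0.33 (adjusted p-value 0.608), so that a change of either sign was within reach at this depth. Control replicate 3 was again the highest, at 3.38 CPM against 1.71 and 1.89 CPM in the others, and without it the log2FC of CLDN3 was 0.19. Of the 50-base windows of its transcripts, 1.8% also occur in transcripts of other genes, mainly CLDN4, and reads that fit equally well elsewhere were not counted.

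OCLN, which encodes occludin, lies on chromosome 5 from 69492292 to 69558104 on the plus strand. It had 4.67, 4.79 and 4.39 CPM in the controls and 4.21, 4.97 and 4.08 CPM in PELP1-KD cells, and the groups overlapped. The log2FC was -0.07, with a 95% interval from -0.35 to 0.21 (adjusted p-value 0.698). The level of OCLN is uncertain because 8.8% of its 50-base windows also occur in transcripts of other genes, mainly its pseudogene OCLNP1. MARVELD2 (tricellulin), of the same membrane family, had a log2FC of 0.09 (adjusted p-value 0.662), and MARVELD3 had no read.

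F11R had the lowest p-value of the 9 genes. It encodes JAM-A, an adhesion receptor that recruits polarity proteins to young junctions, and lies on chromosome 1 from 160995211 to 161021348 on the minus strand. F11R had 347, 454 and 395 reads in control replicates 1, 2 and 3, and 574, 681 and 747 reads in PELP1-KD replicates 1, 2 and 3. Its level was 20.5, 20.0 and 22.2 CPM in the controls and 29.4, 31.9 and 31.7 CPM in PELP1-KD cells, with a wide gap between the groups. The mean rose by 48.4%, at a log2FC of 0.57 ± 0.0673 (SE) with an adjusted p of 6.35e-07 by edgeR. The log2FC stayed between 0.54 and 0.62 over all 13 alternatives. In the GENCODE annotation, 36.6% of the exon bases of F11R also belong to a second gene on the same strand, so that the level of F11R is uncertain to the extent that reads were shared with it.

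TJP1, which encodes ZO-1, was upregulated by a smaller amount. It lies on chromosome 15 from 29699367 to 29968865 on the minus strand. TJP1 had 99.7, 98.6 and 93.9 CPM in controls 1 to 3 and 117, 116 and 114 CPM in PELP1-KD replicates 1 to 3. The replicates of each group lay close together, and the PELP1-KD replicates were all above the controls. The mean rose by 19.1%, at a log2FC of 0.25 ± 0.0407 (SE) with an adjusted p of 3.57e-05, and stayed between 0.23 and 0.30 over all 13 alternatives. TJP3, which encodes ZO-3 and lies on chromosome 19 from 3708109 to 3750813, had 2, 5 and 5 reads in the controls and 3, 1 and 4 reads in PELP1-KD cells. Summed over replicates these were 12 reads (95% exact Poisson interval 6.20 to 21.0) and 8 reads (3.45 to 15.8), intervals which cover counting error alone, and a difference was not detectable at this depth.

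EPCAM lies on chromosome 2 from 47345158 to 47387601 on the plus strand. It had 9.34, 8.80 and 10.2 CPM in the controls and 8.62, 8.90 and 11.2 CPM in PELP1-KD cells, so that the PELP1-KD replicates reached both below and above the controls. The log2FC was 0.03, with a 95% interval from -0.20 to 0.26 (adjusted p-value 0.849).

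**Figure D2:**
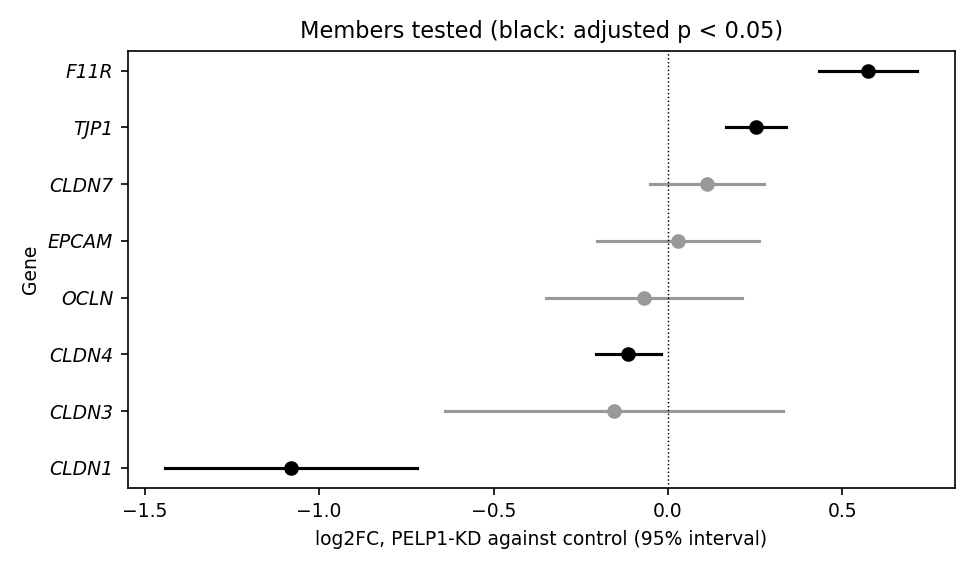
The log2FC of the 8 tested genes, PELP1-KD against control, with 95% intervals from edgeR and n = 3 per group. CLDN1 at -1.08 and F11R at 0.57 lie farthest from 0, and the intervals of CLDN3, OCLN, EPCAM and CLDN7 cross 0.

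The claudin pool was described by summing the RPKM of 21 claudin genes, the 4 above and 17 others. The sum was 50.8 RPKM ± 0.494 (SD, n = 3) in control cells and 44.9 RPKM ± 0.694 (SD, n = 3) in PELP1-KD cells, and the groups did not overlap (p = 0.1 by an exact permutation test, two-sided, and 3 against 3 cannot give a lower one). CLDN4 held 38.9% ± 1.28 (SD, n = 3) of the sum in the controls and CLDN12, a claudin without the tail that binds ZO scaffolds, held 32.7% ± 1.65 (SD, n = 3). CLDN12 fell from 112 ± 6.78 to 77.3 ± 4.36 CPM (mean ± SD, n = 3 each), a log2FC of -0.53 ± 0.0505 (SE) with an adjusted p of 3.21e-08 by edgeR. Its share went from 32.7% to 25.5% ± 1.17 (SD, n = 3) in PELP1-KD cells. CLDN1 held 2.26%, 2.71% and 3.59% of the pool in controls and 1.75%, 1.40% and 1.44% after PELP1-KD (two-sided exact permutation test, p = 0.1). CLDN23 went the other way, from 4.33 ± 0.215 to 6.56 ± 0.13 CPM (mean ± SD, n = 3 each), a log2FC of 0.59 ± 0.119 (SE) with an adjusted p of 3.62e-04. CLDN15 had a log2FC of 0.08 (adjusted p-value 0.525), and the other 14 claudins had too few reads to be tested, 8 of them none at all. With the length of the principal transcript, CLDN12 was ahead of CLDN4 in the controls, with 42.9% against 30.5% of the pool. The shares and this order thus depend on the lengths used. The single RefSeq start of CLDN4 follows base 73830995, near the end of its GENCODE span at 73832693. A transcript from that start would be shorter than either length used here, which would raise the RPKM and share of CLDN4.

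**Figure D3:**
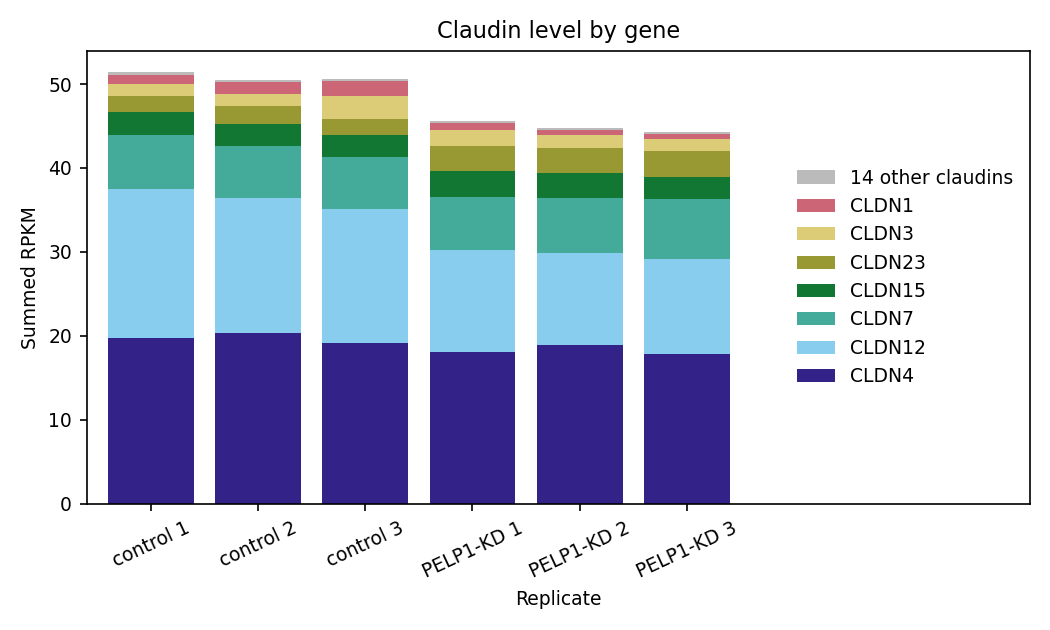
Summed RPKM of claudin genes in each replicate, as stacked bars colored by gene, with the 14 claudins that were not tested in grey. The bars reach from 50.5 to 51.4 RPKM in the controls and from 44.2 to 45.6 RPKM in PELP1-KD cells, and the CLDN12 segment is the one that shrank most.

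A list of 88 other junction and epithelial adhesion genes was examined beside the members, of which 57 were tested. Of these 57, 14 were upregulated and 17 were downregulated, which is 54.4% where 46.9% of all genes tested passed (22.7% higher and 24.2% lower), and their median log2FC was 0.03. Among 11 tested junction scaffolds 4 rose and 2 fell, among 4 tested immunoglobulin-type proteins 2 rose and 1 fell, and among 8 tested polarity proteins 2 rose and 2 fell. Among 7 tested adherens junction genes and nectins 1 rose and 4 fell, and among 7 tested desmosome genes 1 rose and 2 fell. None of 5 genes for junction signaling passed the test.

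The largest rise on this list was that of CGN, which encodes cingulin, a cytoplasmic partner of ZO-1. CGN had 3.37, 3.92 and 3.77 CPM in controls 1 to 3 and 13.6, 13.7 and 13.1 CPM in PELP1-KD replicates 1 to 3. The groups were far apart, at a log2FC of 1.86 ± 0.108 (SE) with an adjusted p of 1.84e-11 by edgeR. LSR (angulin-1), which marks corners where 3 cells meet, rose by a log2FC of 0.48 (adjusted p-value 1.07e-05), the scaffold MAGI1 by 0.40 (adjusted p-value 6.56e-05) and JUP (plakoglobin) by 0.46 (adjusted p-value 2.16e-05). MPP5, which encodes PALS1 of the Crumbs polarity complex, fell from 182 ± 6.88 to 109 ± 5.60 CPM (mean ± SD, n = 3 each), a log2FC of -0.73 ± 0.0426 (SE) with an adjusted p of 1.89e-11. MPP5 was counted above among the junction scaffolds and not among the polarity proteins. PERP, a desmosome-associated membrane protein, had a log2FC of -0.41 (adjusted p-value 3.31e-08), and PRKCI, an atypical protein kinase C of the Par polarity complex, had a log2FC of -0.26 (adjusted p-value 3.79e-05).

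EPCAM did not pass the test, while genes for inhibitors of a protease that acts on it did. SPINT1 and SPINT2 encode HAI-1 and HAI-2, related inhibitors of the protease matriptase, which cleaves EPCAM. SPINT1 had 3.72, 3.96 and 3.66 CPM in the controls and 11.3, 9.98 and 9.51 CPM in PELP1-KD cells, a log2FC of 1.43 ± 0.119 (SE) with an adjusted p of 4.38e-09. SPINT2 had 65.6, 74.6 and 71.8 CPM in the controls and 38.1, 40.4 and 36.9 CPM in PELP1-KD cells, a log2FC of -0.88 ± 0.0571 (SE) with an adjusted p of 1.15e-10. The related inhibitors thus changed in opposite directions, each with groups that did not overlap. ST14, which encodes matriptase, had between 3 and 16 reads and did not pass the test (adjusted p-value 0.145).

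Among 7 tested regulators of epithelial genes 2 rose and 3 fell, where 22.7% of all genes tested rose and 24.2% fell. SNAI1 rose from 4.71 ± 0.234 to 9.26 ± 1.11 CPM (mean ± SD, n = 3 each), a log2FC of 0.98 ± 0.12 (SE) with an adjusted p of 1.23e-06. ZEB1 fell from 78.9 ± 6.25 to 60.7 ± 0.911 CPM (mean ± SD, n = 3 each), a log2FC of -0.38 ± 0.0534 (SE) with an adjusted p of 7.19e-06. Repressors that recognize the same E-box thus changed in opposite directions. ZEB2 had a log2FC of -0.28 with overlapping groups (adjusted p-value 0.0439), and SNAI2 had a log2FC of -0.15 (adjusted p-value 0.0799). GRHL2, an activator of epithelial junction genes, had 1 read in 1 replicate. ESRP1, an epithelial splicing factor, had 12, 9 and 9 reads in the controls and 4, 7 and 7 reads in PELP1-KD cells, too few to be tested.

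**Figure D4:**
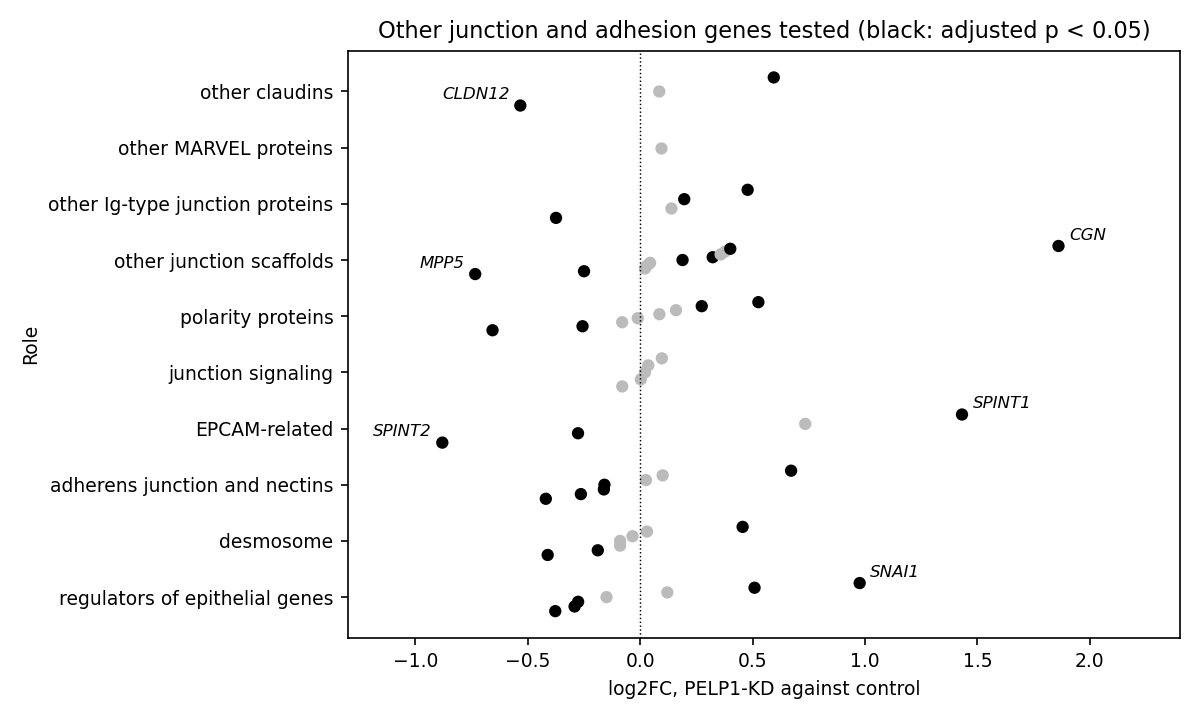
The log2FC of the 57 tested genes of the wider list, PELP1-KD against control, grouped by role, with genes past an adjusted p-value of 0.05 in black and others in grey. CGN at 1.86 and SPINT1 at 1.43 stand apart on the right, and SPINT2 at -0.88 and MPP5 at -0.73 on the left.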

How the data were processed

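RNA-seq was done on 3 control and 3 PELP1-KD replicates of MDA-MB-231 cells, with stranded mRNA libraries and single reads of 50 bases. The authors deposited counts, which are whole numbers of reads per gene symbol without normalization. The submitters' processing notes name bcl2fastq, TopHat2, SAMtools, HTSeq and the build hg19, and the strand setting of the counting is not given in the sources used here. The closing totals of the deposited tables, which name no gene, held between 41.0% and 41.4% of the reads and were left out. Most of them were reads with more than a single alignment.

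Genes were kept by edgeR's filterByExpr with a minimum of 10 counts, libraries were scaled by TMM, and 12796 genes were tested by the quasi-likelihood test of edgeR 4.0.16 in R 4.3.3 with Benjamini-Hochberg adjustment over all of them. SE was taken as the size of the log2FC over the root of F. RPKM used exon lengths of GENCODE release 29 on GRCh38, whose coordinates are given for the genes, and its transcripts were used for the search of shared windows of 50 bases. The gene annotation behind the deposited counts is not given, and its exon lengths may differ from these. The claudin sum and the share of CLDN1 in it were compared by exact permutation tests. Replicates of a group differed by more than counting noise, since chi-square over its degrees of freedom ran from 1.46 to 4.07.

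The test was checked on simulated counts with known changes. Alternatives were RLE factors, library totals, DESeq2 1.42.0, voom in limma 3.58.1, other filters, the replicate number as a block, CPM in place of RPKM for shares and leaving out each replicate. The length of the principal transcript was added after the data were seen. The members and lists were chosen with earlier results of these data known. All 9 members are named. Of the wider list, those named are the 6 of lowest p-value upward and the 6 downward, together with the most abundant listed claudin, CDH1, ZEB1, ZEB2, SNAI1, SNAI2, GRHL2 and ESRP1. Other genes of the wider list, such as CLDN15, CLDN23, MARVELD2, MARVELD3 and ST14, and the marker genes were named after their values were seen. Some other genes of the wider list that this rule names, and the results that need them, are not reported here. Protein data were not analysed here.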

Additional observations from a re-analysis of the deposited data

How the results depend on the processing

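Over 13 alternatives, F11R, TJP1, CLDN1 and PELP1 kept their direction and passed an adjusted p-value of 0.05, and CLDN7 and OCLN kept their direction without passing. Of the 9 members, 2 were downregulated in the main test, and 1 with DESeq2 and with library totals alone, where the call of CLDN4 was lost. The count of downregulated members ran from 1 to 2 and that of upregulated members stayed at 2 when each replicate was left out in turn. Over these omissions the log2FC of CLDN3 ran from -0.31 to 0.19 (above 0 only without control replicate 3) and that of EPCAM from -0.11 to 0.098 (below 0 without PELP1-KD replicate 3 and, at -0.03, without control replicate 2), and none passed the test. With library totals, 61.2% of all called genes were higher in PELP1-KD cells instead of 48.3%. Genes past a log2FC of 1 numbered 243 higher and 171 lower in the main test, and 134 and 106 with at least 10 counts in every replicate. Control and PELP1-KD replicates are numbered alike. Between a control and a PELP1-KD replicate with equal number, deviations correlated at 0.039, 0.065 and -0.078. These low values gave no sign of pairing. With 3 replicates per group they cannot exclude a shared culture or batch, which the labels do not settle. With the replicate number as a block, 2 members were higher and 2 were lower, as were 16 and 18 genes of the wider list. Of all genes, 3140 were higher and 3335 were lower with the block, beside 2904 and 3103 without it. The log2FC of PELP1 was -0.97 with the block, and no member's call changed. Fold changes of CLDN1, CLDN3 and OCLN rest on few reads.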

Other observations

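Of the 12796 genes tested, those whose profile was closest to that of F11R over the 6 replicates were IL32, MICALCL and C17orf63. Closeness was the root mean square distance in log2 CPM after each gene was centered on its control mean, and came to 0.0329, 0.0332 and 0.0365. Their log2FC was 0.56, 0.58 and 0.55, with adjusted p-values of 8.89e-08, 0.019 and 4.36e-07 from edgeR's quasi-likelihood test. The 6 replicates fall into 2 separate groups, so that a gene with a log2FC near 0.57 lies close by construction.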
